A study of Mus musculus with 21 samples.

Results

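Transcript levels of 30 genes of cholesterol and fatty acid synthesis were followed in mouse skin. They were chosen by gene symbol from a count table of 64050 symbols, and they divide by role into 18 enzymes of sterol synthesis, 4 genes of sterol regulation and transport, and 8 enzymes of fatty acid synthesis, elongation and desaturation. All 30 of 30 passed the filter on low counts, and the lowest count of any of them in any library was 91. The skin came from BALB/c mice irradiated with 700 cGy at 8 weeks of age and then given bone marrow. Marrow of B10.D2 donors (allogeneic) brings on chronic graft-versus-host disease of a sclerodermatous form, with immune attack by donor cells and hardening of the skin, and marrow of BALB/c donors (syngeneic) does not. In 4 libraries, allogeneic recipients had been treated with mCAN10, an antibody against IL1RAP, the co-receptor shared by the receptors for IL-1, IL-33 and IL-36. Another 4 libraries came from allogeneic recipients given the isotype control antibody (mIgG2a LALA-PG), and 4 from syngeneic recipients given that same isotype. Nintedanib, an inhibitor of growth factor receptor kinases, had been given to allogeneic recipients in 5 libraries, and water (ddH2O) in 4. Treatment ran for 4 weeks from day 21 after transplantation, and the skin was collected in week 7. Both antibodies went into the peritoneum, at 20 mg/kg once and at 10 mg/kg from then on. Nintedanib is recorded at 50 mg/kg, daily by mouth in one description and by injection in another, so its route is uncertain here. Donor strain divides the allogeneic from the syngeneic groups exactly as disease does, and the effects of strain and disease cannot be told apart. No source used here gives the sex of the mice.

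Cells build cholesterol from acetyl-CoA by way of mevalonate, isoprenoid units, squalene and lanosterol, and they build fatty acids from acetyl-CoA by way of malonyl-CoA. The transcription factors SREBP-2 (gene Srebf2) and SREBP-1 (gene Srebf1) switch on the sterol and the fatty acid genes, and INSIG1, whose own gene is an SREBP target, holds the SREBPs in the endoplasmic reticulum when sterols are plentiful. In skin, cholesterol and fatty acids made in the epidermis go into the lipid barrier of the cornified layer, sebaceous glands make lipids for sebum, and the fat layer under the dermis stores triglycerides.

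Promoter windows of 6 genes on which the results turn are shown here, from 250 bases before to 50 bases after the RefSeq start, 5′ to 3′ on the strand of the gene and on the mouse build GRCm38.p6, which is older than the build of the counts. Hmgcs1 and Msmo1 were higher with nintedanib and have the core of a sterol regulatory element, Hsd17b7 and Ebp were higher in diseased skin and lower with the antibody, and Insig1 and Elovl6 were higher under both treatments. Capitals mark the core of the sterol regulatory element (TCACNCCA), the CCAAT box (CCAAT, or ATTGG on the opposite strand) and the E-box (CACGTG). The windows are chr13:119690101-119690400 (plus strand, Hmgcs1), chr8:64733529-64733828 (minus strand, Msmo1), chr1:169969156-169969455 (minus strand, Hsd17b7), chrX:8193463-8193762 (minus strand, Ebp), chr5:28071162-28071461 (plus strand, Insig1) and chr3:129532136-129532435 (plus strand, Elovl6).
Hmgcs1: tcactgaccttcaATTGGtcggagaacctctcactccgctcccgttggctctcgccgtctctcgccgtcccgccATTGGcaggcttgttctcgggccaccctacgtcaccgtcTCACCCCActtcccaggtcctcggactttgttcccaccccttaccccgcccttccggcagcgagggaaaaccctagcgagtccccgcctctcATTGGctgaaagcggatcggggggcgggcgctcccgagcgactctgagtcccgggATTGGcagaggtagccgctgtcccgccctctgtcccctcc
Msmo1: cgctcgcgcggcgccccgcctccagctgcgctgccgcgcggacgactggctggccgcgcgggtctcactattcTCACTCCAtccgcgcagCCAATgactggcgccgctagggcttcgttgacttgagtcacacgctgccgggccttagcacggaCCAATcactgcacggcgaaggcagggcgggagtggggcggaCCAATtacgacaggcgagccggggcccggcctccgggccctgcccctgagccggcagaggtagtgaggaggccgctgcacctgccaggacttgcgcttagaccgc
Hsd17b7: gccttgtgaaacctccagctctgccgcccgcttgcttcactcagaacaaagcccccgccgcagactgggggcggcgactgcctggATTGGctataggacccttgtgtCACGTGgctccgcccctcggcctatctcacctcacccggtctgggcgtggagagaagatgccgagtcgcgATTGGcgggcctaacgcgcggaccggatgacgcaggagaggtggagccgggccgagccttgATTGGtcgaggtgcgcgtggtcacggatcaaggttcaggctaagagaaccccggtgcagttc
Ebp: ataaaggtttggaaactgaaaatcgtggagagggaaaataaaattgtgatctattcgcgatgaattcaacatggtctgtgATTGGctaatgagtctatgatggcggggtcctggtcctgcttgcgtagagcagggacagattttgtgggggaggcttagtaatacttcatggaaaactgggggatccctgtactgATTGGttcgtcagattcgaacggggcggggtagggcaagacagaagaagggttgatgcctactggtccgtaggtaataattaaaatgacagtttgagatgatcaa
Insig1: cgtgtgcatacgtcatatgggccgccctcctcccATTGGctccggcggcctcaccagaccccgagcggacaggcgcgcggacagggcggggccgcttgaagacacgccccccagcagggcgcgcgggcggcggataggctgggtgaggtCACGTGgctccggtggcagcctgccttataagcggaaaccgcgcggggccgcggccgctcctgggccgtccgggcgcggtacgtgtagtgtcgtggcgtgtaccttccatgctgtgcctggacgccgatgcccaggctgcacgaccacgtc
Elovl6: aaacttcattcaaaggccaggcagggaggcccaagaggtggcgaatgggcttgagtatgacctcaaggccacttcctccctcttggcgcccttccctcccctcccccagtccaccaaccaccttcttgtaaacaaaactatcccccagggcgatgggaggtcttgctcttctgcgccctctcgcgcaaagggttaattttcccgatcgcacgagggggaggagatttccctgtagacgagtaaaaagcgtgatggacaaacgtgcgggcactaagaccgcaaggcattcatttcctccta

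In the Hmgcs1 window the sterol regulatory element core began at position -137 relative to the start, among 4 CCAAT boxes, and in the Msmo1 window at -177, beside 3 CCAAT boxes. The Hsd17b7 and Insig1 windows held no such core but an E-box, at -143 and -101, together with 3 CCAAT boxes and 1. Ebp had 2 CCAAT boxes, and none of the 3 motifs was found in the Elovl6 window. RefSeq windows were matched to 24 of the 30 genes, 29 windows in all. On either strand the core TCACNCCA was in 3 of the 29 windows (Hmgcs1, Msmo1 and Srebf2), against 4.36% of 32851 mouse windows of this length. Nsdhl, Lss, Sc5d and Fads2, which also rose with nintedanib, had windows without the core. Srebf2, which has it, passed the test in no comparison. CCAAT boxes were in 21 of the 29 windows, against 37.4% of all windows, and the E-box CACGTG in 4 (Dhcr7, Hsd17b7, Insig1 and Sc5d), against 7.15%. Marked motifs overlapped in the Fasn window alone. A match describes these letters and not the binding of a factor.

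Total counts ranged from 17130264 to 32899212 per library. The 12 antibody and isotype libraries and the 9 nintedanib and water libraries had been counted in separate runs with different gene names, so each treatment is compared within its own run. Levels are CPM values, counts relative to the library's total scaled with TMM factors, and they are compared between groups for 1 gene at a time. Basal keratinocyte genes (Krt5, Krt14, Krt15 and Col17a1) defining for skin epithelium, summed to between 4878 and 16860 CPM in every library. Hair follicle genes (8 genes, among them Krt25, Krt27, Krt71 and Tchh) summed to 51930 and 20070 CPM in nintedanib libraries 1 and 3 but to between 9.67 and 554 CPM in the other libraries. Skeletal muscle genes summed to 7.98 CPM in allogeneic isotype library 1, against 2659 to 40620 CPM in the other libraries of its counting run. In the nintedanib and water libraries they summed to 2452 to 34150 CPM. There the muscle gene Mylpf was hardly counted (means of 0.386 and 0.34 CPM), so muscle sums of the 2 runs are not alike. Nintedanib library 2 had the highest sum of 7 adipocyte genes, 14430 CPM. A change is called where edgeR's quasi-likelihood test gave an adjusted p under 0.05 over 20462 genes, and changes are log2 fold changes ± SE.

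The first comparison, allogeneic against syngeneic skin under the same isotype antibody, asks how the pathway stands in diseased skin. A set of late sterol enzymes (Sqle, Cyp51, Hsd17b7 and Ebp) and the cholesterol carrier Stard4 rose to between 1.61 and 2.15 times their syngeneic level, and the fatty acid elongase Elovl6 fell to 0.285 of it. In all, 6 of the 30 genes passed the test, 5 higher and 1 lower. This is near the background, since 22.6% of all genes tested passed, 13.8% higher and 8.8% lower. By branch, 4 sterol enzymes rose and 0 fell, with a median log2 fold change of 0.21 over the 18, while 0 fatty acid enzymes rose and 1 fell, with a median of -0.13 over the 8. The median over all genes tested was 0. Both branch medians depended on single libraries. The sterol median was 0.08 without allogeneic library 4, 0.13 without syngeneic library 1 or 2, and up to 0.29 without any other. The fatty acid median was -0.56 without allogeneic library 2, -0.04 without allogeneic library 3, -0.03 without syngeneic library 1, and -0.20 to -0.23 without syngeneic library 2, 3 or 4. In bulk skin, fewer cells of a type and less RNA per cell cannot be told apart.

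Ebp, the sterol isomerase that moves a ring double bond on the way to cholesterol, had 59.5, 57.1, 48.0 and 66.0 CPM in allogeneic isotype libraries, against 34.0, 31.1, 40.2 and 38.0 CPM in syngeneic isotype libraries. Cyp51, the demethylase of lanosterol, had 130.1, 115, 98.7 and 159 CPM in allogeneic isotype libraries, against 60.1, 55.3, 77.5 and 79.3 CPM in syngeneic isotype libraries. In both genes every allogeneic library lay above every syngeneic one. Ebp was higher by 0.68 ± 0.12 (adjusted p = 0.000619) and Cyp51 by 0.89 ± 0.17 (adjusted p = 0.00144).

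Hsd17b7, a ketosteroid reductase that takes part in removing methyl groups from lanosterol products, had 40.4, 48.8, 39.3 and 71.0 CPM in allogeneic isotype libraries, against 17.8, 19.3, 28.2 and 29.2 CPM in syngeneic isotype libraries. Sqle, the squalene epoxidase, had 142, 114, 124 and 214 CPM in allogeneic isotype libraries, against 60.4, 67.0, 108 and 99.6 CPM in syngeneic isotype libraries. The groups did not overlap, and allogeneic library 4 was the highest in both genes. Hsd17b7 was higher by 1.08 ± 0.27 (adjusted p = 0.00798) and Sqle by 0.83 ± 0.26 (adjusted p = 0.0283). The call of Sqle was lost in 6 of 18 alternative settings, among them without allogeneic library 4, without syngeneic library 1 and without syngeneic library 2, with adjusted p up to 0.125.

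Stard4 codes for a protein that carries cholesterol between membranes. It had 70.9, 52.5, 53.0 and 131 CPM in allogeneic isotype libraries, against 25.9, 31.7, 39.0 and 46.1 CPM in syngeneic isotype libraries. The groups did not overlap, with library 4 again highest, and the difference was 1.10 ± 0.28 (adjusted p = 0.00763). Insig1 (-0.67 ± 0.43), Srebf1 (-0.59 ± 0.23) and Srebf2 (0.22 ± 0.18) did not pass the test.

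Elovl6 lengthens palmitate to stearate. It had 64.6, 154, 20.8 and 45.8 CPM in allogeneic isotype libraries, against 170, 178, 431 and 222 CPM in syngeneic isotype libraries. All allogeneic libraries lay below all syngeneic ones, but within the allogeneic group library 2 was well above library 3. Elovl6 fell by 1.81 on the log2 scale (SE 0.50, adjusted p = 0.0135), and its call was lost without syngeneic library 3 and when only the compared groups were fitted, with adjusted p up to 0.0575. The other 7 fatty acid enzymes overlapped between the groups, with changes between -0.48 (Fads2) and 0.52 (Acly). Among the 14 sterol enzymes that were not called, changes lay between -0.28 (Fdps) and 0.79 (Idi1, the isopentenyl diphosphate isomerase, adjusted p = 0.0627).

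Marker sums of the sebaceous gland were lower in the same group as Elovl6. Within the allogeneic isotype group, however, Elovl6 was highest in library 2 and the sebaceous sum in library 1. The 7 sebaceous genes (Awat1, Awat2, Dgat2l6, Elovl3, Far2, Mc5r and Scd3) summed to between 25.4 and 78.9 CPM in allogeneic isotype libraries, against 168 to 568 CPM in syngeneic isotype libraries, and 5 of 7 fell while 0 rose. Awat1 had 0 counts in allogeneic libraries 2 and 3. Of 7 adipocyte genes 2 fell, and their sums overlapped between the groups, at 1410 to 3967 CPM in allogeneic isotype libraries against 3687 to 12410 CPM in syngeneic isotype libraries. All 3 activated keratinocyte genes (Krt6a, Krt6b and Krt16) and all 5 differentiated keratinocyte genes rose. Activated keratinocyte sums were 3526 to 8128 CPM in allogeneic isotype libraries, against 108 to 153 CPM in syngeneic isotype libraries. The part of these cell types in the changes of Elovl6 and of the sterol enzymes was not tested.

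Of the other genes of the pathway in this comparison, 2 of 9 further fatty acid genes passed the test, both lower. The elongase of polyunsaturated fatty acids Elovl5 averaged 45.4 ± 14.4 CPM in allogeneic isotype skin and 99.4 ± 23.0 CPM in syngeneic isotype skin (SD, n = 4 each), a change of -1.13 ± 0.20 (adjusted p = 0.000688). Tecr, the reductase of the elongation cycle, fell by 0.50 on the log2 scale (adjusted p = 0.0369). Among 4 genes of SREBP processing, Mbtps1, which codes for a protease that cuts SREBPs, fell by 0.43 (adjusted p = 0.00447). Of 9 genes of sterol uptake, export and LXR signalling 3 rose and 0 fell: the cholesterol exporter Abcg1 (1.09 ± 0.29, adjusted p = 0.0110), the lysosomal cholesterol carrier Npc2 (0.68 ± 0.20, adjusted p = 0.0222) and the LXR gene Nr1h2 (0.35 ± 0.11, adjusted p = 0.0287). Macrophage markers were higher beside them. Of 4 macrophage genes (Cd68, Adgre1, C1qb and Csf1r) 2 rose and 0 fell, C1qb by 2.43 ± 0.48 (adjusted p = 0.00158) and Cd68 by 0.99 ± 0.34 (adjusted p = 0.0442). Their sums were 474 to 1096 CPM in allogeneic isotype libraries against 200.4 to 386 CPM in syngeneic isotype libraries, without overlap, and their part in the changes of Abcg1, Npc2 and Nr1h2 was not tested.

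**Figure D1:**
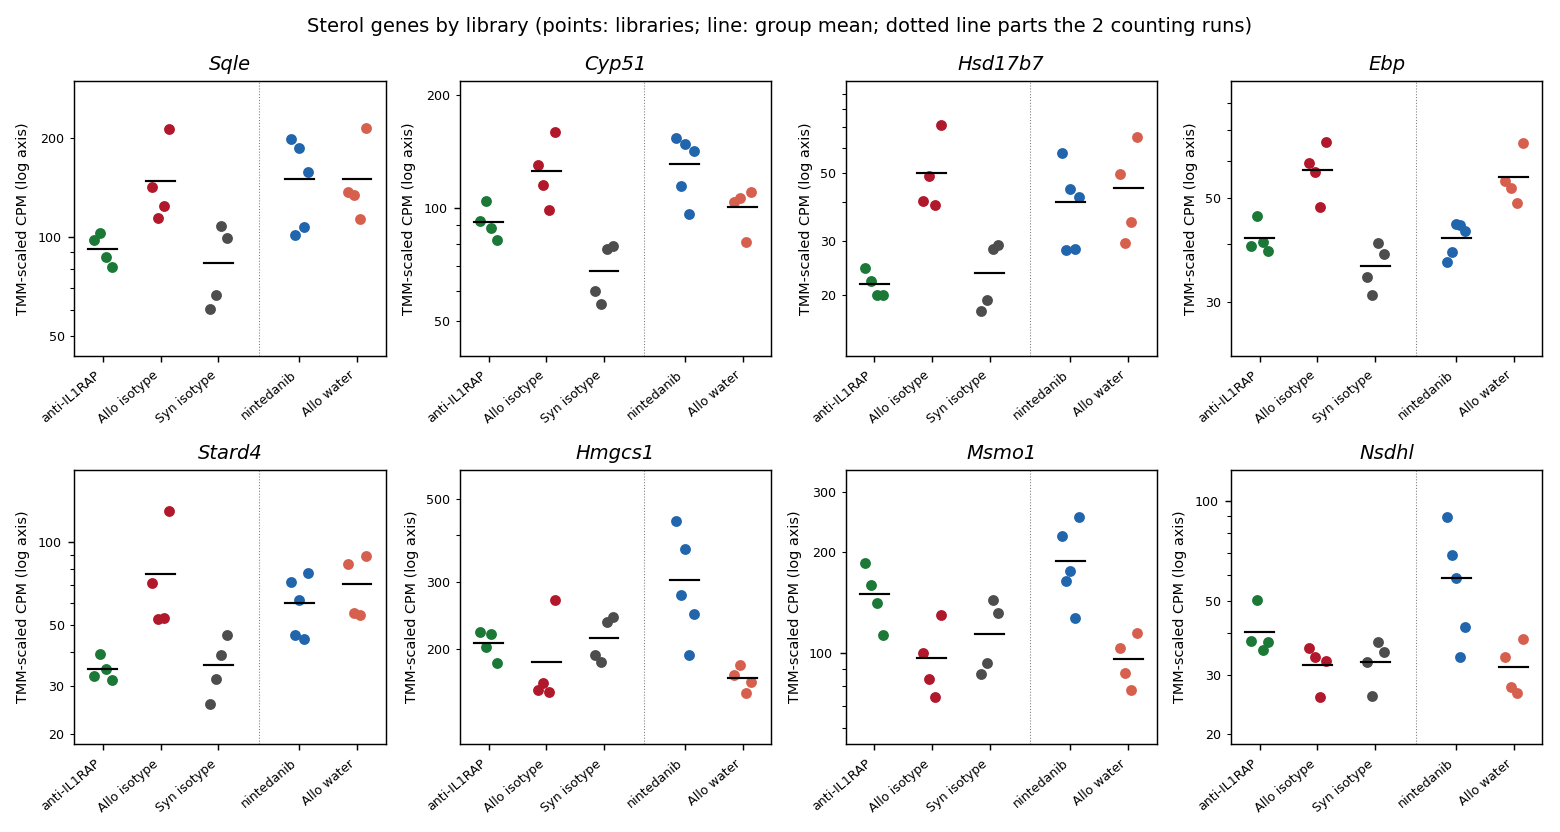
TMM-scaled CPM (log axis) of sterol genes in each library, with a line at the group mean, groups along the horizontal axis and a dotted line between the counting runs. Ebp, Cyp51, Hsd17b7, Sqle and Stard4 lie higher in every allogeneic isotype library than in every syngeneic isotype library, and Msmo1 and Hmgcs1 lie higher in every nintedanib library than in every water library.

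The second comparison, anti-IL1RAP antibody against isotype in allogeneic skin, asks what the antibody changed in the disease. Hsd17b7, Ebp and Stard4 fell to between 0.436 and 0.714 of their isotype level, and Insig1 and Elovl6 rose to 3.69 and 3.73 times it. These were 5 of the 30 genes, 2 higher and 3 lower, where 10.8% of all genes tested passed, 5.58% higher and 5.19% lower. Among the 18 sterol enzymes 0 rose and 2 fell (median -0.08), and among the 8 fatty acid enzymes 1 rose and 0 fell (median 0.73). Without single libraries the fatty acid median lay between 0.56 (without isotype library 4) and 1.25 (without isotype library 2). The fitted change was positive for all 8 fatty acid enzymes, and for 9617 of the 20462 genes tested. Several of the 8 were highest in the same libraries, and all were chosen with results known, so this count is not a test of the branch. The isotype libraries are those of the comparison with syngeneic skin, so the changes of the 2 comparisons are not independent.

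Hsd17b7 had 24.6, 22.2, 20.1 and 20.0 CPM in anti-IL1RAP libraries, and Ebp had 39.6, 45.9, 40.4 and 38.7 CPM, against the isotype values given above. Stard4 had 32.7, 39.1, 34.7 and 31.6 CPM in anti-IL1RAP libraries. In these 3 genes every anti-IL1RAP library lay below every isotype library. Hsd17b7 changed by -1.20 ± 0.27 (adjusted p = 0.00831), Ebp by -0.49 ± 0.12 (adjusted p = 0.0125) and Stard4 by -1.15 ± 0.28 (adjusted p = 0.0112). Allogeneic isotype library 4, which was the highest of its group for each of them, decided 2 of these calls, since without it the adjusted p was up to 0.0557 for Ebp and 0.0578 for Stard4.

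Insig1 had 57.6, 111, 136 and 108 CPM in anti-IL1RAP libraries, against 30.1, 44.4, 18.8 and 18.8 CPM in isotype libraries. The groups did not overlap, with anti-IL1RAP library 1 lowest of its group. The change was 1.88 ± 0.44 (adjusted p = 0.0104), and the call was kept in each of 18 alternative settings. Elovl6 had 295, 336, 231 and 203 CPM in anti-IL1RAP libraries, all above the isotype libraries, of which library 2 was the closest with 154 CPM. It changed by 1.90 ± 0.50 (adjusted p = 0.0188), but the call was lost without isotype library 4 and without anti-IL1RAP library 2, with adjusted p up to 0.0707. Without isotype library 4, 2 of the 30 genes were called (Hsd17b7 and Insig1), and the median over sterol enzymes was 0.13. Calls over all genes tested lay between 1284 and 2168 in the fits without 1 library, against 2204 with all libraries.

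The other genes were not called. Within the sterol branch their changes lay between -0.69 (Sqle) and 0.63 (Msmo1), and Mvk, the mevalonate kinase, missed the threshold at -0.50 ± 0.16 (adjusted p = 0.0551) although its groups did not overlap. Sqle likewise did not overlap between the groups. Acss2, which makes acetyl-CoA from acetate, and the desaturase Fads1 also did not overlap between the groups and did not pass (adjusted p = 0.159 and 0.151). The same held for Srebf1 (0.61 ± 0.23) and Srebf2 (-0.34 ± 0.18), which changed in opposite directions without passing the test. Fasn, the fatty acid synthase, had 1196, 2975, 2261 and 2561 CPM in anti-IL1RAP libraries, against 736, 2524, 131 and 217 CPM in isotype libraries. Isotype library 2 lay within the range of the anti-IL1RAP libraries, and the change of 1.32 ± 0.98 (adjusted p = 0.454) did not pass.

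Sebaceous sums were again apart beside Elovl6, at 275 to 708 CPM in anti-IL1RAP libraries against 25.4 to 78.9 CPM in isotype libraries, with 6 of 7 genes higher and 0 lower. Of 7 adipocyte genes 1 passed the test, and all 7 had a positive fitted change, with a median of 1.34. All 3 activated keratinocyte genes and 3 of 5 differentiated keratinocyte genes fell, and activated keratinocyte sums were 154 to 304 CPM in anti-IL1RAP libraries against 3526 to 8128 CPM in isotype libraries. Their part in the changes above was not tested. Outside the 30 genes, Elovl5 was the 1 of 9 further fatty acid genes that rose (1.15 ± 0.20, adjusted p = 0.00169), and Mbtps1 the 1 of 4 SREBP processing genes (0.35 ± 0.10, adjusted p = 0.0272). Of 9 uptake, export and LXR genes 0 passed in either direction.

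Anti-IL1RAP and syngeneic isotype skin were compared to ask how far treated skin differs from skin without the disease. None of the 30 genes passed edgeR's test, where 0.811% of all genes tested did (166 of 20462), 0.777% higher and 0.0342% lower. At an unadjusted p under 0.05 there were 4 of the 30 members, all higher in anti-IL1RAP skin, and 2801 genes in all. That is near the background, since 13.7% of all genes tested had such a p. DESeq2 called 0 members and 690 genes. Insig1 had the lowest p, with 57.6 to 136 CPM in anti-IL1RAP libraries against 34.5 to 53.3 CPM in syngeneic isotype libraries. Its groups did not overlap, and the change was 1.21 ± 0.43 (adjusted p = 0.226, with a 95% confidence interval of 0.30 to 2.12). Cyp51 had 92.3, 104, 88.2 and 82.0 CPM in anti-IL1RAP libraries, also without overlap with syngeneic isotype libraries (0.43 ± 0.17, adjusted p = 0.277). Acss2 had 65.9, 126, 72.8 and 77.3 CPM in anti-IL1RAP libraries, against 62.6, 40.5, 47.0 and 40.2 CPM in syngeneic isotype libraries, likewise apart (0.85 ± 0.42, adjusted p = 0.390). Elovl6 differed by 0.09 ± 0.48, with a 95% interval of -0.92 to 1.10 that does not show equal levels. The median was 0.20 over sterol enzymes and 0.57 over fatty acid enzymes, against 0.03 over all genes tested. The sterol median was 0.06 without anti-IL1RAP library 2, 0.13 without anti-IL1RAP library 1 and 0.11 without syngeneic library 1. When only these groups were fitted, 3 of the 30 genes were called (Acss2, Idi1 and Insig1), all higher, and 2131 of all genes.

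The third comparison set nintedanib against water in allogeneic skin, within the second counting run. Insig1 and Elovl6 were again among the genes that rose, to 4.15 and 6.69 times the water level, together with enzymes along the sterol pathway from Hmgcs1 to Sc5d (1.45 to 1.96 times) and the desaturases Scd2, Fads1 and Fads2 (1.81 to 4.85 times), while Ebp fell to 0.741 of the water level. In all 12 of 30 genes passed, 11 higher and 1 lower, where 9.31% of all genes tested passed, 5.56% higher and 3.76% lower. The sterol branch had 6 enzymes higher and 1 lower (median 0.50), and the fatty acid branch 4 higher and 0 lower (median 1.15), against a median of 0 over all genes. Without nintedanib library 2 the fatty acid median was 0.59. These calls rest on a spread estimated over all 21 libraries. Fitted on the 9 libraries of this run alone, 1 of the 30 genes was called, Elovl6, and 94 of all genes.

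Msmo1, the methylsterol oxidase that begins removing methyl groups from the sterol ring, had 222, 164, 175, 127 and 253 CPM in nintedanib libraries, against 104, 87.5, 78.1 and 115 CPM in water libraries. Hmgcs1, which makes HMG-CoA, the precursor of mevalonate, had 435, 278, 367, 193 and 247 CPM in nintedanib libraries, against 171, 182, 153 and 164 CPM in water libraries. Neither gene overlapped between the groups, and nintedanib library 4 was lowest of its group in both. Msmo1 was higher by 0.97 ± 0.22 (adjusted p = 0.0121) and Hmgcs1 by 0.86 ± 0.21 (adjusted p = 0.0160). Nsdhl, which removes a carboxyl group in the same steps as Msmo1, had 89.7, 69.0, 58.7, 34.0 and 41.9 CPM in nintedanib libraries, against 34.1, 27.6, 26.6 and 38.5 CPM in water libraries. Its groups overlapped through nintedanib library 4, and the change was 0.89 ± 0.22 (adjusted p = 0.0197).

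Lanosterol synthase Lss (0.88 ± 0.25, adjusted p = 0.0360), farnesyl diphosphate synthase Fdps (0.66 ± 0.19, adjusted p = 0.0393) and the sterol desaturase Sc5d (0.53 ± 0.16, adjusted p = 0.0386) also rose. Of 24 alternative settings, the call was lost in 13 for Lss, 14 for Fdps and 16 for Sc5d, and all 3 were lost without nintedanib library 1 or 3 and without water library 2 or 3. The calls of Hmgcs1 and Nsdhl were lost in 9 settings each, those of both without nintedanib library 1 or water library 3, and that of Ebp in 8, among them without water library 4. Ebp went the other way, with 36.5, 38.4, 44.1, 43.9 and 42.6 CPM in nintedanib libraries, against 54.4, 52.8, 48.9 and 65.8 CPM in water libraries. All nintedanib libraries lay below all water libraries, a change of -0.43 ± 0.11 (adjusted p = 0.0222). Of the genes called in the comparison of allogeneic with syngeneic skin, Sqle (0.00 ± 0.25), Cyp51 (0.38 ± 0.16), Hsd17b7 (-0.16 ± 0.25) and Stard4 (-0.23 ± 0.26) were not called here. The remaining sterol enzymes changed by -0.20 (Mvk) to 0.81 (Idi1) without passing, and Srebf1 and Srebf2 by 0.28 and -0.10.

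Insig1 had 190, 229, 96.0, 34.1 and 96.0 CPM in nintedanib libraries, against 27.8, 20.1, 43.7 and 32.8 CPM in water libraries. Nintedanib library 4 lay among the water libraries and the other 4 above them, and the change was 2.05 ± 0.43 (adjusted p = 0.00807). Elovl6 had 267, 373, 259, 95.4 and 455 CPM in nintedanib libraries, against 46.2, 37.8, 54.4 and 34.7 CPM in water libraries. It did not overlap between the groups and changed by 2.74 ± 0.50 (adjusted p = 0.00360), or with an adjusted p of 0.0286 when the 9 libraries were fitted alone.

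Fads2 and Fads1 place double bonds in polyunsaturated fatty acids, and Scd2 makes monounsaturated ones. Fads2 had 139, 28.6, 101, 13.2 and 18.7 CPM in nintedanib libraries, against 11.4, 11.2, 11.3 and 15.6 CPM in water libraries. Nintedanib libraries 1 and 3, which had the high hair follicle sums, were far above the rest, and library 4 lay among the water libraries (2.28 ± 0.55, adjusted p = 0.0163). Scd2 had 586, 278, 477, 173 and 212 CPM in nintedanib libraries, against 142, 103, 193 and 211 CPM in water libraries, with libraries 1 and 3 again highest and an overlap at the low end (1.09 ± 0.33, adjusted p = 0.0473). Its reads may be shared with related Scd genes, which was not checked, so its level is uncertain. Fads1 had 99.95, 109, 79.7, 41.0 and 61.8 CPM in nintedanib libraries, against 39.0, 45.7, 39.5 and 48.5 CPM in water libraries, overlapping through library 4 (0.86 ± 0.27, adjusted p = 0.0493). The call of Fads1 was kept in 4 of 24 alternative settings and lost with RLE size factors, without nintedanib library 1, 2 or 3 and without any 1 of the water libraries, with adjusted p up to 0.888. That of Scd2 was lost in 17 of them, also without any 1 of the water libraries and without nintedanib library 1 or 3, with adjusted p up to 0.926. Acly, Acss2, Acaca and Fasn had positive changes (0.69 to 1.45) that did not pass, and over the alternative settings the lowest values were -1.20 for Fasn, -0.51 for Acaca and -0.38 for Acly. Fasn had 456, 6807, 609, 231 and 766 CPM in nintedanib libraries, against 856, 161, 1048 and 531 CPM in water libraries, so that library 2 alone stood above the water range.

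**Figure D2:**
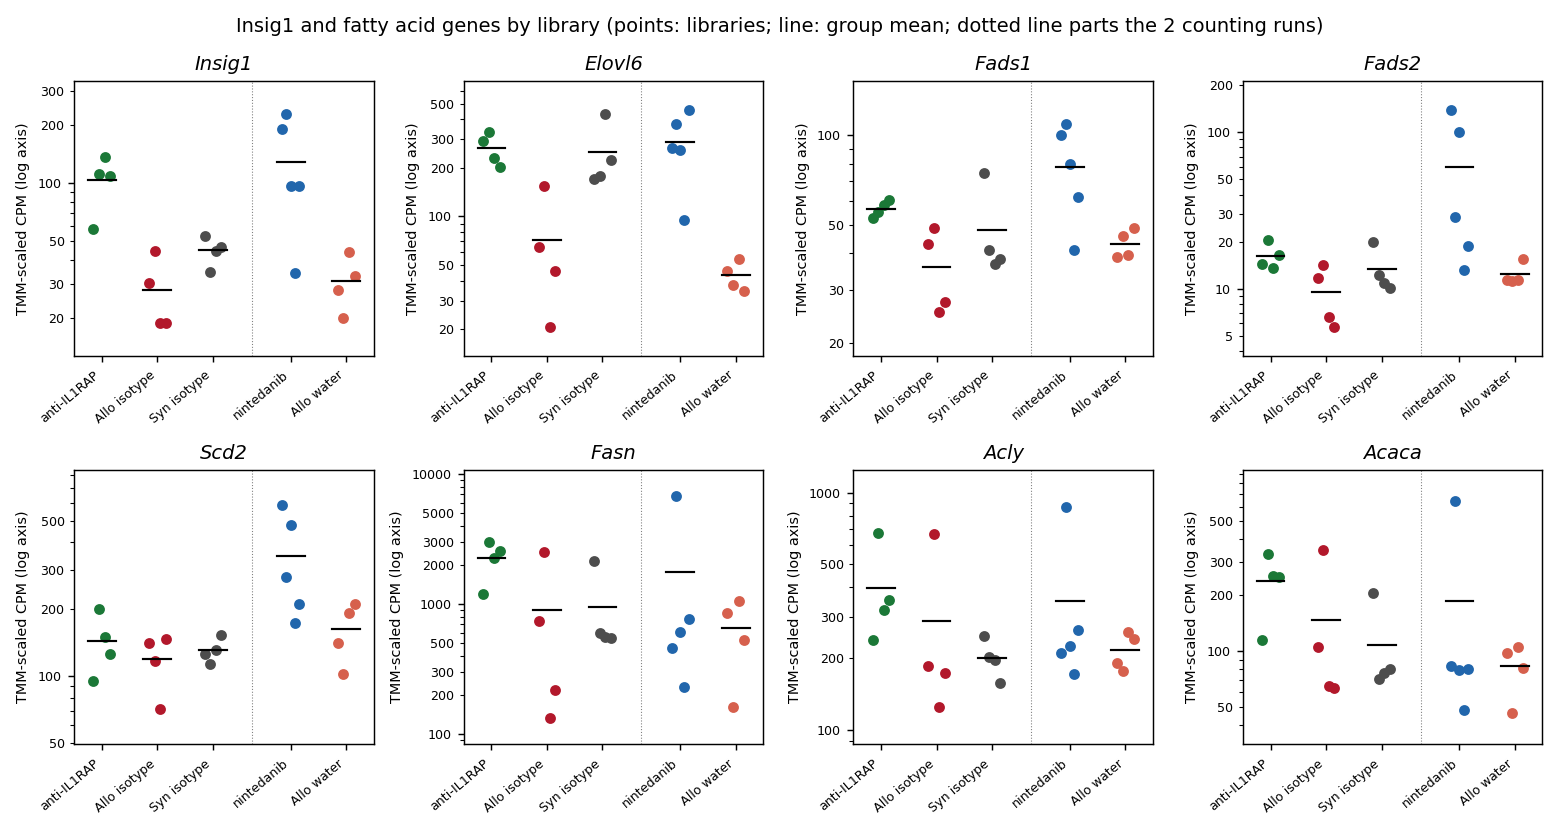
TMM-scaled CPM (log axis) of Insig1 and 7 fatty acid enzymes in each library, with a line at the group mean, groups along the horizontal axis and a dotted line between the counting runs. Elovl6 lies lower in every allogeneic control library than in every library of the treatment compared with it, Fads2 reaches 139 and 101 CPM in 2 nintedanib libraries, and Fasn, Acly and Acaca have 1 high nintedanib library.

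The nintedanib count depended on single libraries. Without nintedanib libraries 1 and 3 together, 3 of 30 genes were called (Msmo1, Insig1 and Elovl6) and the sterol median was 0.22, and without libraries 1, 2 and 3 together 1 gene was called (Elovl6), with medians of 0.20 over sterol and 0.21 over fatty acid enzymes. Leaving out single libraries gave 5 calls without nintedanib 1 or water 3, 6 without water 2 or water 4, 7 without nintedanib 3 and 16 without nintedanib 4. Calls over all genes tested moved as well in these fits. They ranged from 782 without water library 4 to 2794 without nintedanib library 5, against 1906 with all libraries. In the other settings, among them the fits without several libraries and those by lane note, they lay between 94 and 3039. Among the libraries whose labels note 2 sequencing lanes (3 nintedanib, 2 water) 2 genes were called (Insig1 and Elovl6), and among those without the note (2 against 2) 0 were, with a fatty acid median of 0.44.

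Sebaceous sums were 135 to 554 CPM in nintedanib libraries against 6.33 to 18.1 CPM in water libraries, and all 7 sebaceous genes rose. Dgat2l6 had 0 counts in water libraries 2 and 3, and Awat1 in water library 3. Of 8 hair follicle genes 3 rose. Of 7 adipocyte genes 0 passed the test, but all 7 had a positive fitted change, with a median of 1.45. Adipocyte sums were 1614 to 14430 CPM in nintedanib libraries, highest in library 2, and 892 to 3030 CPM in water libraries. All 3 activated keratinocyte genes fell, with sums of 164 to 804 CPM in nintedanib libraries against 1787 to 9561 CPM in water libraries. Fads2 was not called without nintedanib libraries 1 and 3 or with hair follicle sums as a covariate, while Elovl6 and Insig1 were called in both fits. The call of Fads2 was also lost when only the groups compared were fitted, as was that of Insig1. The high hair follicle sums were in nintedanib libraries alone, so this covariate cannot separate hair follicle content from treatment. The part of hair follicle, sebaceous, adipocyte and keratinocyte content in the changes was not tested. Outside the 30 genes, Elovl5 (1.11 ± 0.19, adjusted p = 0.00260) and the elongation enzyme Hsd17b12 (0.91 ± 0.27, adjusted p = 0.0375) rose, as 2 of 9 further fatty acid genes. The LXR gene Nr1h2 was the 1 of 9 uptake, export and LXR genes that passed the test, and it fell (-0.40 ± 0.11, adjusted p = 0.0247). Of 4 SREBP processing genes 0 passed.

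**Figure D3:**
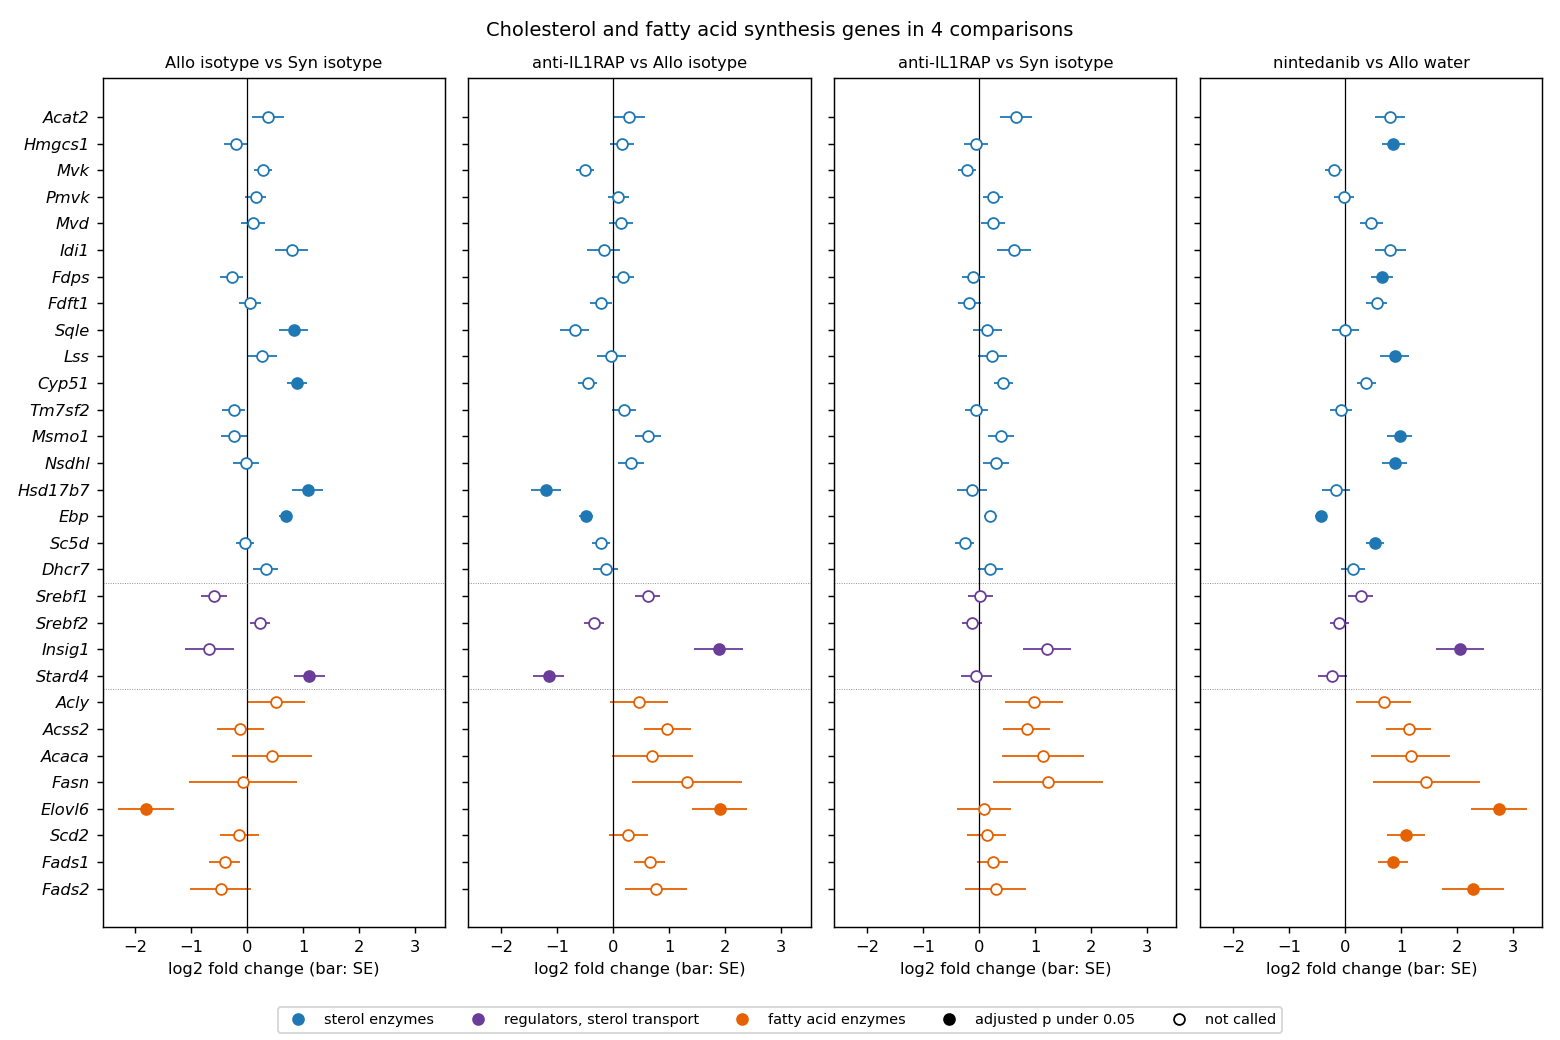
Log2 fold changes (horizontal axis) of the 30 genes in each comparison, ordered by role, with bars for the SE and filled points for genes with an adjusted p under 0.05. Insig1 and Elovl6 lie to the right in both treatment comparisons, at 1.88 and 1.90 with the antibody and at 2.05 and 2.74 with nintedanib.

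Whether the antibody and nintedanib changed the genes differently was tested as the difference of the 2 effects, antibody minus nintedanib. No gene passed edgeR's test, 0 of the 30 and 0 of 20462 (0%). At an unadjusted p under 0.05 there were 8 of the 30 members, all with the lower change under the antibody, and 2495 genes in all (12.2% of those tested). The median difference was -0.54 over sterol enzymes and -0.35 over fatty acid enzymes, against -0.05 over all genes tested. The fatty acid median changed sign with single libraries, at 0.20 without nintedanib library 2 and 0.04 without allogeneic isotype library 2, and was 0.13 with a replicate block by description number. Cyp51 had the lowest p (-0.84 ± 0.24, adjusted p = 0.188), and DESeq2 called it as 1 of 429 genes (adjusted p = 0.0407). Stard4 differed by -0.92 ± 0.38 (adjusted p = 0.322) and Fads2 by -1.51 ± 0.76 (adjusted p = 0.441), both short of the threshold. Insig1 differed by -0.17 with a 95% interval from -1.41 to 1.07, and Elovl6 by -0.84 with one from -2.24 to 0.56, so that neither equal nor unequal effects are shown. Each treatment was given in another counting run, which cannot be told apart from the treatments in this difference.

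The branches varied to different degrees between libraries of a group. Within groups, the SD of log2 CPM ran from 0.157 (Ebp) to 0.421 (Acat2) among sterol enzymes, with a median of 0.302, and from 0.401 (Fads1) to 1.40 (Fasn) among fatty acid enzymes, with a median of 0.728. Fasn, Acly and Acaca were highest in the same library within each of the 5 groups, anti-IL1RAP 2, allogeneic isotype 2, syngeneic isotype 1, nintedanib 2 and water 3. That library also had the highest adipocyte sum of its group, with the exception of anti-IL1RAP, where library 3 did. Acss2 was highest in the same libraries except in the water group, where it was highest in library 1. Elovl6 was highest in the same libraries as Fasn except in the syngeneic isotype and nintedanib groups. There it was highest in syngeneic isotype library 3 and nintedanib library 5, which had the highest sebaceous sums of their groups. Averaged over the 8 fatty acid enzymes, log2 levels relative to the water mean lay between -0.11 and 2.22 in nintedanib libraries and between -0.51 and 0.25 in water libraries. Relative to the allogeneic isotype mean they lay between 0.69 and 1.58 in anti-IL1RAP libraries and between -0.81 and 1.11 in allogeneic isotype libraries. The same averages over the 18 sterol enzymes lay between -0.07 and 0.65 in nintedanib libraries against -0.20 and 0.24 in water libraries, and between -0.28 and 0.07 in anti-IL1RAP libraries against -0.23 and 0.34 in allogeneic isotype libraries. In each of these 4 cases the groups overlapped.

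**Figure D4:**
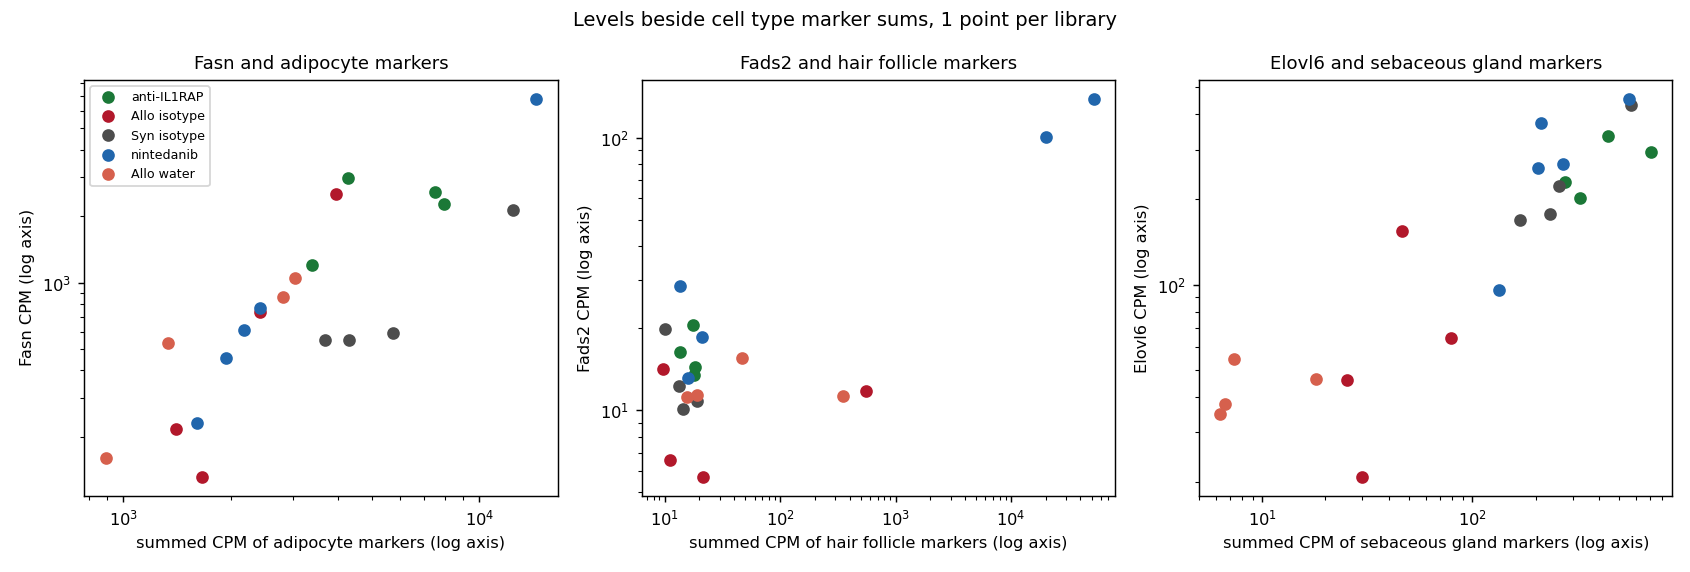
Levels of Fasn, Fads2 and Elovl6 in TMM-scaled CPM (vertical log axes) against the summed CPM of adipocyte, hair follicle and sebaceous gland markers (horizontal log axes), with 1 point per library, coloured by group. Nintedanib library 2 has both the highest Fasn level (6807 CPM) and the highest adipocyte sum (14430 CPM), nintedanib libraries 1 and 3 stand apart in Fads2 and hair follicle sums, and the control libraries of allogeneic skin are low in sebaceous sums (at most 78.9 CPM).

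**Figure D5:**
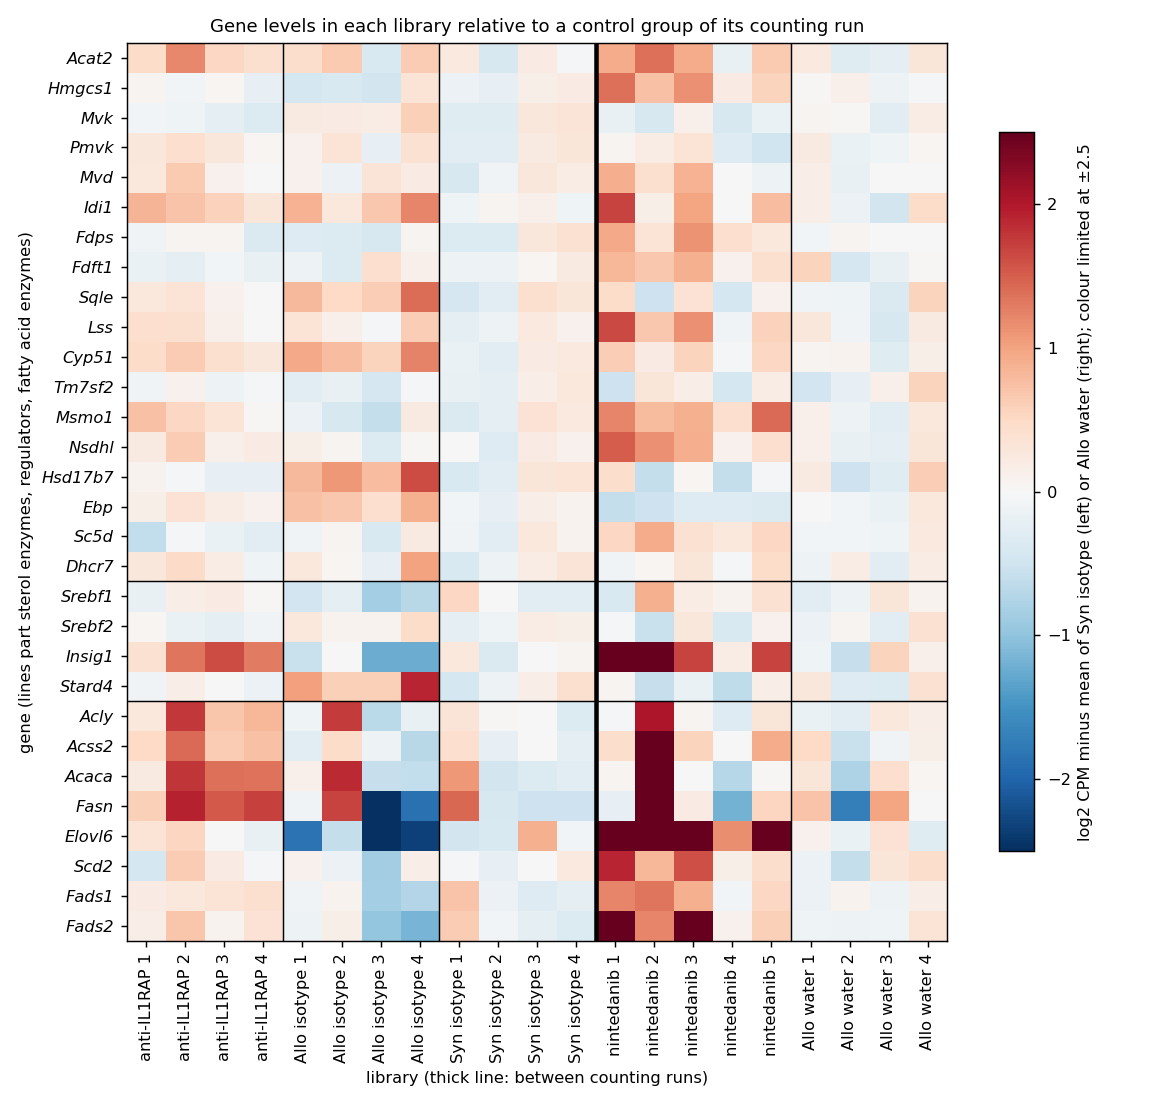
Log2 level of each of the 30 genes (vertical axis, by role) in each library (horizontal axis, by group), as log2 CPM minus the mean of syngeneic isotype libraries in the first counting run and of water libraries in the second, with colours limited at a set size. Acly, Acaca and Fasn stand out in nintedanib library 2, and Elovl6 is low in every allogeneic isotype library.

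The library kit does not mark strand, and exons of 11 of the 30 genes overlap exons of other genes in an older annotation (GENCODE vM21). The overlap is 1124 of 4208 exon bases for Fdps, 557 of 4594 for Hmgcs1, 381 of 10787 for Lss, 166 of 4415 for Cyp51 and 34 of 6431 for Elovl6. Reads from these stretches can belong to either gene.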

How the data were processed

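RNA was sequenced from pieces of skin 3 mm in diameter, with 1 μg of RNA per library and, per the labels' protocols, a NEBNext Ultra poly-A kit, which does not mark strand. The authors deposited read counts, whole numbers for each gene symbol, made with FastQC, Trimmomatic, STAR and featureCounts on GRCm39, per the submitters' processing notes. The settings of these tools and the annotation were not given in the sources used here. Of 64050 symbols, 21830 had counts in both counting runs.

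The tests were run in edgeR 4.0.16 (R 4.3.3). After filterByExpr with a minimum count of 10, 20462 genes remained, which were scaled with TMM factors and fitted for all 21 libraries together (glmQLFit, glmQLFTest) with a mean per group. Adjusted p-values are Benjamini-Hochberg values over all genes tested, with a threshold of 0.05, and each SE is the log2 fold change divided by the root of its F statistic. Intervals use the t distribution with the fit's degrees of freedom. Simulated counts with set changes served to check the 4 group comparisons. Whether replicate samples came from separate mice is not said in the labels, so p-values measure the spread between these samples, which may be technical. For a group more variable than the rest, SEs from the shared fit may be too low.

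The 30 genes, the other gene lists and the marker lists were chosen with earlier results of these data known. A list of further sterol enzymes is not reported here. Full values were given for called genes with the lowest p in each comparison, up to 4 sterol enzymes, 2 regulators or transport genes and 4 fatty acid enzymes, and for the gene with the lowest p where a branch had none. Alternatives were RLE size factors, no filter, fits on fewer libraries or symbols, a replicate block, marker or lane covariates, leaving out libraries, and DESeq2 1.42.0. Leaving out nintedanib libraries 1 and 3, or 1, 2 and 3, together was chosen after seeing the data. Promoter windows are RefSeq's (GRCm38.p6). The plots were made in Python 3.11.15 with matplotlib 3.10.9.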

Additional observations from a re-analysis of the deposited data

Results flagged for a closer look

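In 11 of 150 pairs of a gene and a group, 1 library lay apart from the others of its group by Dixon's test on log2 CPM. Chance alone flags about 1 in 20 of all 150 pairs, so many of the 11 may be chance. Flags of several genes in the same library are not independent. The library was the highest of its group in each of the 11.

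Allogeneic isotype library 4 was apart in 3 sterol enzymes, with 269 CPM of Hmgcs1 (the others had 153.9 to 162 CPM), 109 CPM of Mvk (others 82.1 to 83.7 CPM) and 178 CPM of Fdps (others 127 to 134 CPM). Syngeneic isotype library 1, with the highest adipocyte sum of its group (12410 CPM), was apart in 3 fatty acid enzymes, with 205 CPM of Acaca (others 70.4 to 80.4 CPM), 2122 CPM of Fasn (others 549.9 to 594 CPM) and 74.9 CPM of Fads1 (others 36.8 to 41.1 CPM). Nintedanib library 2, with the highest adipocyte sum of any library (14430 CPM), had 871 CPM of Acly (others 172 to 264 CPM) and 639.5 CPM of Acaca (others 48.0 to 83.2 CPM).

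Anti-IL1RAP library 2 had 86.3 CPM of Acat2, the cytosolic thiolase that makes acetoacetyl-CoA (others 49.8 to 53.9 CPM). Water library 4 had 57.9 CPM of Sc5d (others 45.3 to 46.8 CPM) and 15.6 CPM of Fads2 (others 11.2 to 11.4 CPM).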

How the results depend on the processing

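No change of a gene called in any of the 5 comparisons reversed its direction under any alternative. For allogeneic against syngeneic isotype skin the number of the 30 genes called lay between 5 and 7 when single libraries were left out, with a fatty acid median of -0.56 to -0.03. It lay between 5 and 8 in the other settings, with 7 for DESeq2, while calls over all genes ranged from 3580 to 6538. For anti-IL1RAP against isotype it was 5, 6 with DESeq2, 8 when only the groups compared were fitted, and 8 when only libraries of the counting run were fitted. It was 2 to 5 without single libraries, with a sterol median of -0.15 to 0.13, while calls over all genes ranged from 1284 to 3664. For anti-IL1RAP against syngeneic isotype it was 0, 3 when only the groups compared were fitted, and 0 in every fit without 1 library, while calls over all genes ranged from 31 to 2131. For nintedanib against water it was 12, 15 with DESeq2, 6 with no filter, and 5 to 16 without single libraries. Calls over all genes were 1906, 3039 with DESeq2, 782 to 2794 without single libraries, and 94 to 3039 over all other settings. Of the 30 genes, 1 was called when only the groups compared (the libraries of that counting run) were fitted, 2 with the lane note, and 0 without it (fatty acid median 0.44). Without nintedanib libraries 1 and 3, 3 of the 30 were called (sterol median 0.22), and without 1, 2 and 3 together 1 was (sterol median 0.20, fatty acid median 0.21). In the difference between the treatments DESeq2 called 1 gene, and the sterol median was -0.31 without nintedanib libraries 1 and 3, while the fatty acid median of -0.35 lay between -0.63 and 0.20 without single libraries. The cause of these shifts was not tested.

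Whether same-numbered libraries form pairs is not settled. Correlations of their deviations from the group means were between -0.354 and 0.347, and not every pair passed 0.1. By title number, 2 of 4 pairs of anti-IL1RAP and isotype libraries did. Differently numbered libraries were not correlated for reference, so this check cannot exclude pairing. With the replicate block by title number the calls were 6, 5, 0 and 10 in the 4 group comparisons, and by description number 6, 5, 0 and 9. With 4 or 5 libraries a group, the 95% intervals leave changes of some fatty acid enzymes undecided, as for Fasn with nintedanib (-0.55 to 3.45).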
